A study of Schmidtea mediterranea with 5 samples.

Results

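Cells from anterior-facing wounds of planarians at 6 h post amputation (hpa) were compared with cells from the same body region at 0 hpa. A cell was a droplet barcode with at least 1000 unique molecular identifiers (UMIs, each standing for 1 captured RNA molecule) and 200 to 2500 detected contigs, a contig being an assembled transcript of the *Schmidtea mediterranea* transcriptome. This rule kept 3052 cells at 6 hpa and 5166 cells at 0 hpa, together 8218 of the 23946 cells that it kept over all 5 libraries of the series. Both libraries came from liver-fed animals of strain CIW4 without RNAi, and from the post-pharyngeal region, the body behind the feeding organ. The strain is clonal and asexual, and per the methods all animals went without food for some days before use. Fragments of many animals were pooled and run as 1 library per group, so that no difference between the groups could be set against a spread between replicates. The 6 hpa fragments were labelled anterior-facing and their cells were sorted as medium and high for calcein, a dye that living cells retain, which was meant to let in more damaged cells. The 0 hpa fragments carry no facing side in their labels, and their cells were sorted as low for propidium iodide, a dye that enters cells with a broken membrane. Time after amputation, dye and library therefore cannot be told apart in any value below. Both sorts took the X-insensitive fraction, in which cells with more DNA than resting ones, the cycling neoblasts, are gated away. The methods add propidium iodide to the 6 hpa sample as well. The other 3 libraries were labelled 18 hpa and propidium iodide low, though the methods do not name that dye for the *unc-22* sample, and comprised anterior-facing wounds without RNAi, anterior-facing wounds of animals fed control *unc-22* dsRNA, and posterior-facing wounds without RNAi.

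Planarians regenerate any missing part from neoblasts, a population of stem cells in the tissue between epidermis and gut. After amputation, epidermal cells spread over the cut surface within hours, and genes that respond to any wound are switched on in epidermis, muscle and neoblasts. The epidermis itself has no dividing cells and is renewed by neoblast progeny that pass through early and late progenitor stages while they move outwards.

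The libraries differed in more than time. Cells had a median of 1974 UMIs at 6 hpa and 3834.5 at 0 hpa, and when every cell was thinned at random to 1000 UMIs the median was 467.5 contigs at 6 hpa and 589 at 0 hpa. Barcodes of at least 1000 UMIs held 41.1% of all UMIs of the 6 hpa library and 92.5% of those of the 0 hpa library. Droplets with 10 to 100 UMIs, taken as empty and holding free RNA, drew 78.4% of their UMIs from 2 contigs at 6 hpa, dd_Smed_v6_4_1 and dd_Smed_v6_7_0, and 36.1% at 0 hpa. In cells these 2 contigs took 25.3% of UMIs at 6 hpa and 12.8% at 0 hpa. Levels in empty droplets are given below as shares of all their UMIs, these 2 contigs included. They are therefore not on a like scale between libraries. The 8 mitochondrial contigs took 14.3% of cell UMIs at 6 hpa and 9.57% at 0 hpa, and 16.6% of cells at 6 hpa had more than 30% mitochondrial UMIs, against 1.43% at 0 hpa. The libraries shared 4 cell barcodes, where 2.32 would be shared if barcodes were drawn at random.

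UMIs were summed over the cells of each library and scaled to counts per 1000000 UMIs (CPM). Among 8560 contigs with a mean of at least 10 CPM over both libraries, 251 (2.93%) were at least 2-fold higher at 6 hpa and 1986 (23.2%) were at least 2-fold lower, while 6323 lay within 2-fold. This split rests on the scale. The median contig had a log2 ratio of 6 hpa over 0 hpa of -0.44, and on ratios centred on it 603 contigs (7.04%) were higher and 856 (10%) lower. Scaled to UMIs outside the mitochondrial contigs, dd_Smed_v6_4_1 and dd_Smed_v6_7_0, a scale chosen after the data were seen, the median was -0.08, with 654 contigs higher and 1188 lower. In cells of 1000 to 3000 UMIs only, 2326 at 6 hpa and 1809 at 0 hpa, 330 contigs were higher and 3228 lower. The widest differences were few on the first scale, with 46 contigs at least 10-fold higher and 63 at least 10-fold lower. The middle 95% of contigs ran from -2.23 to 1.11 on the log2 scale. Both 18 hpa anterior-facing libraries, which share time and side, gave a narrower range of -1.18 to 0.64 for *unc-22* over no RNAi, with 20 of 8740 contigs (0.229%) higher and 299 (3.42%) lower.

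**Figure D1:**
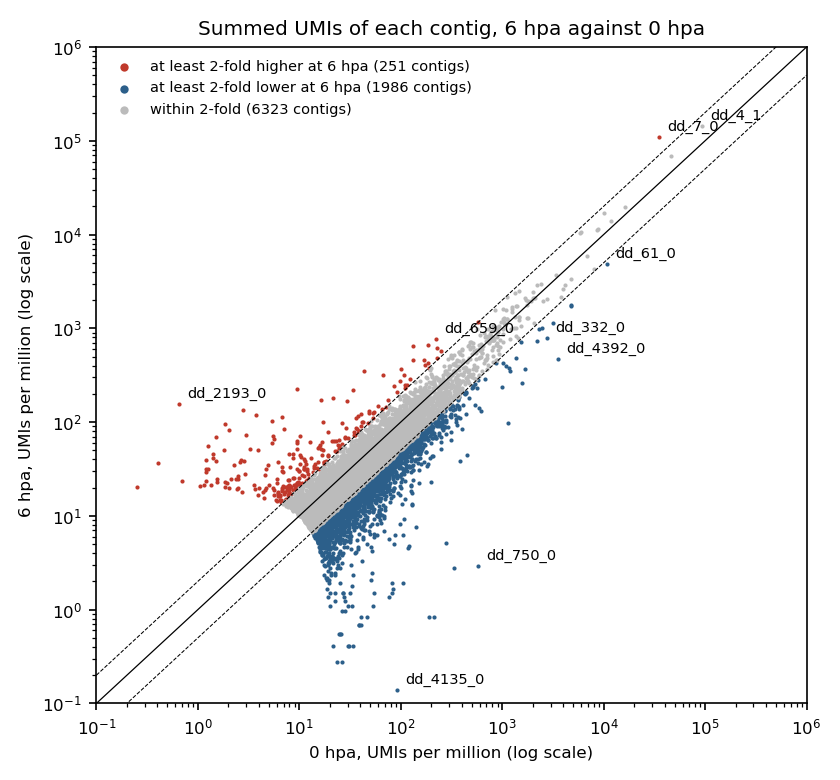
Summed CPM of 8560 contigs in cells at 6 hpa (vertical) and 0 hpa (horizontal), both on log scales, with the line of equal values and dashed lines at 2-fold. Labels drop the assembly name, so that dd_659_0 is dd_Smed_v6_659_0. The 1986 lower contigs form a broad band under the diagonal, and the contigs that are higher by the widest ratios lie at the left, where 0 hpa has few UMIs.

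The 12 contigs with the highest ratios were scarce in the cells of every other library. They had 20.3 to 154 CPM at 6 hpa and 0.251 to 3.76 at 0 hpa, and at most 5.37 in the cells of any 18 hpa library. Empty droplets of the 18 hpa anterior-facing library held more of them than its cells did, 5.71 to 95.9 CPM, with dd_Smed_v6_2193_0 at 95.9, against 36.7 in empty droplets at 6 hpa and 7.99 at 0 hpa. The highest ratio was that of dd_Smed_v6_2193_0, with 1121 UMIs at 6 hpa (154 CPM) and 13 at 0 hpa (0.652 CPM), a 236-fold difference with a log2 ratio of 7.88 and an exact 95% interval of 7.10 to 8.80. This interval and all others cover counting error only. It stood at 2.29, 0 and 1.41 CPM in the 18 hpa anterior-facing, anterior-facing *unc-22* and posterior-facing libraries. Next came dd_Smed_v6_2937_0, with 36.8 CPM at 6 hpa and 0.402 at 0 hpa, and dd_Smed_v6_2116_0, with 20.3 at 6 hpa and 0.251 at 0 hpa. More abundant were dd_Smed_v6_357_0, at 133 CPM in 6 hpa cells and 2.81 in 0 hpa cells, and dd_Smed_v6_1329_0, at 118 and 3.76 in the same order. The sources used here give no gene for any of these 12 contigs.

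These 12 contigs sat in 1 group of cells. When the cells of both libraries were clustered together, 91.8% to 99.3% of their UMIs at 6 hpa fell in cluster 16, which held 198 cells at 6 hpa and 16 at 0 hpa. In that cluster 27 of 44 contigs fixed as cilium markers were raised, meaning at least 2-fold above the median cluster with 20 CPM added to each. With every cell thinned to 1000 UMIs, 3.70% of cells at 6 hpa (exact binomial 95% interval 3.06 to 4.43) and 0.0581% at 0 hpa (0.0120 to 0.170) had a UMI of dd_Smed_v6_2193_0. Within cluster 16 the share was 52.0% at 6 hpa and 18.8% at 0 hpa, and in cluster 8, led by dd_Smed_v6_61_0 and with 363 cells at 6 hpa, it was 0.275% at 6 hpa. Of the 251 contigs called higher, 126 had more of their 6 hpa UMIs in cluster 16 than in any other cluster, and without the cells of that cluster 142 were called higher. Fewer cells of a kind at 0 hpa and less RNA per cell cannot be told apart from summed UMIs, and whether a cluster held mostly by 1 library reflects the wound, the dye or the library was not tested.

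**Figure D2:**
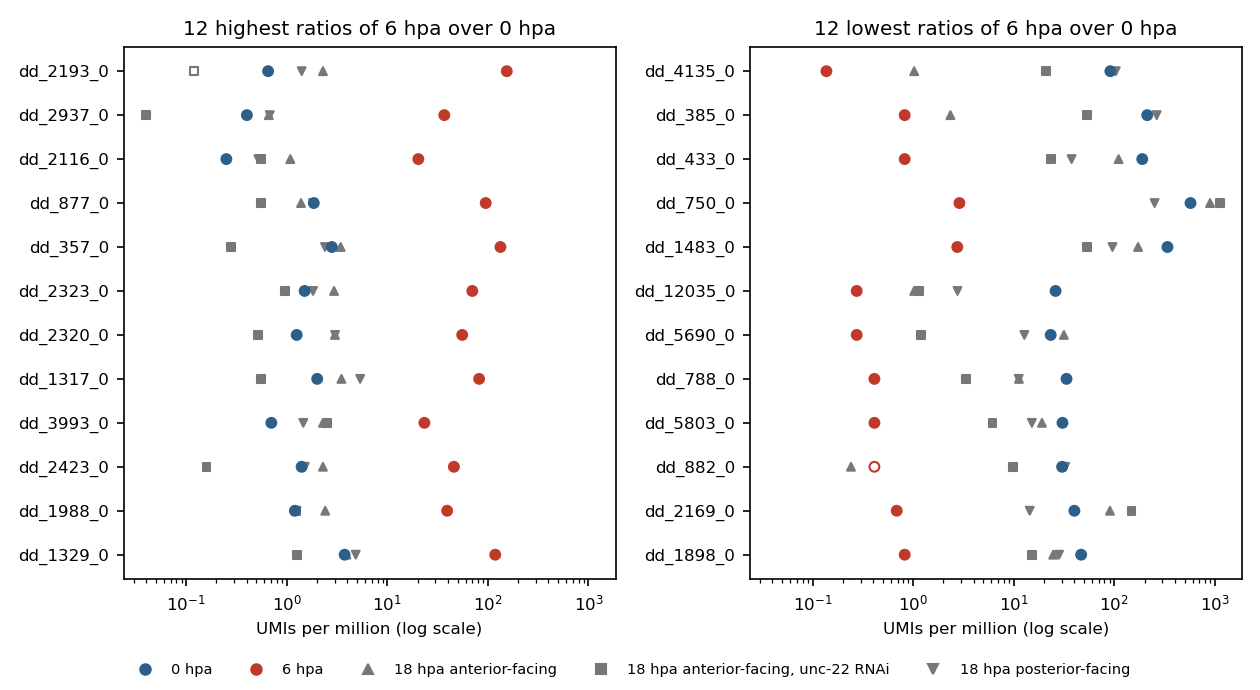
CPM (log scale) of the 12 contigs with the highest (left) and the 12 with the lowest (right) ratios of 6 hpa over 0 hpa, in each of the 5 libraries. Open symbols mark 0 UMIs and are drawn at the level of 3 counts. On the left the 6 hpa library stands alone to the right of the other 4 libraries, and on the right it lies to the left of 0 hpa in every row, while the 18 hpa libraries scatter between and beyond them.

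The 12 contigs with the lowest ratios were nearly absent from 6 hpa cells. dd_Smed_v6_4135_0 had 1 UMI at 6 hpa (0.137 CPM) and 1823 at 0 hpa (91.5 CPM), a log2 ratio of -9.38 (-14.68 to -6.90). dd_Smed_v6_385_0 had 0.825 CPM at 6 hpa and 213 at 0 hpa, and dd_Smed_v6_433_0 had 0.825 at 6 hpa and 190 at 0 hpa, 230-fold lower. The most abundant of them, dd_Smed_v6_750_0, had 2.89 CPM at 6 hpa and 574 at 0 hpa. dd_Smed_v6_882_0 had no UMI at 6 hpa and 604 at 0 hpa (30.3 CPM), and was at least 73.5-fold lower, taking 3 counts as the limit that a count of 0 allows. For 6 of these contigs, dd_Smed_v6_4135_0, dd_Smed_v6_385_0, dd_Smed_v6_433_0, dd_Smed_v6_750_0, dd_Smed_v6_882_0 and dd_Smed_v6_2169_0, 96.0% to 98.0% of 0 hpa UMIs came from cluster 17, which held 6 cells at 6 hpa and 205 at 0 hpa. dd_Smed_v6_1483_0, at 2.75 CPM in 6 hpa cells and 338 in 0 hpa cells, had 71.3% of its 0 hpa UMIs in cluster 14, with 25 cells at 6 hpa and 212 at 0 hpa. dd_Smed_v6_5803_0 had 89.0% of its 0 hpa UMIs in cluster 11, in which 30 of the 44 cilium contigs were raised and which held 7 cells at 6 hpa and 290 at 0 hpa. All 12 were lower in 6 hpa cells than in the cells of any other library, and the 18 hpa levels varied widely. dd_Smed_v6_4135_0 stood at 1.02, 20.8 and 104 CPM in the anterior-facing, *unc-22* and posterior-facing 18 hpa libraries, and dd_Smed_v6_750_0 at 897, 1117 and 252. Free RNA held these transcripts as well, also at 6 hpa: dd_Smed_v6_750_0 made up 64.2 CPM of empty droplets at 6 hpa and 548 at 0 hpa, dd_Smed_v6_2169_0 38.0 at 6 hpa and 106 at 0 hpa, and dd_Smed_v6_385_0 9.17 at 6 hpa and 293 at 0 hpa. For all of the 12 but dd_Smed_v6_5803_0 the 6 hpa level in empty droplets was above that in 6 hpa cells. For dd_Smed_v6_4135_0 it was 6.55 CPM in empty droplets and 0.137 in cells, and for dd_Smed_v6_1483_0 15.7 and 2.75. Several of these empty droplet levels, at 1.31 CPM, rest on very few UMIs. The cell values thus speak of the cells kept and not of the whole library.

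By absolute level, the widest rises lay in transcripts that nearly every cell held. dd_Smed_v6_7_0 made up 109113 CPM at 6 hpa and 35389 at 0 hpa, and dd_Smed_v6_4_1 made up 143822 at 6 hpa and 92363 at 0 hpa. Both were also the leading contigs of empty droplets, and the part of free RNA in their cell levels was not tested. All 8 transcripts of the mitochondrial genome, which serves the respiratory chain, were higher at 6 hpa, with log2 ratios of 0.30 to 0.95 and none past 2-fold. Empty droplets held little of them, 0.921% of UMIs at 6 hpa and 2.66% at 0 hpa.

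Among abundant contigs that were lower, dd_Smed_v6_4392_0 had 466 CPM at 6 hpa and 3569 at 0 hpa, 7.66-fold lower with a log2 ratio of -2.94 (-2.99 to -2.89). The 18 hpa libraries lay between, at 1591, 1667 and 2034 CPM. With every cell thinned to 1000 UMIs, 23.0% of cells at 6 hpa and 68.3% at 0 hpa held a UMI of it. In cells of 1000 to 3000 UMIs the log2 ratio was -2.44. dd_Smed_v6_62_0 had 1779 CPM at 6 hpa and 4778 at 0 hpa, and was found in 67.2% of thinned cells at 6 hpa and 90.0% at 0 hpa. dd_Smed_v6_3_0 was lower by CPM, at 4305 in 6 hpa cells and 8086 in 0 hpa cells, yet was found in more thinned cells at 6 hpa (36.3%) than at 0 hpa (27.2%). For dd_Smed_v6_69_0, with 1738 CPM at 6 hpa and 4743 at 0 hpa, the direction turned in cells of 1000 to 3000 UMIs, where the log2 ratio was 0.16.

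*equinox* (dd_Smed_v6_20318_0), the wound-induced gene the study follows, was rare but higher at 6 hpa. Its mean of 5.37 CPM over both libraries was under the limit of 10 CPM, which left it out of the 8560 contigs above. It had 62 UMIs at 6 hpa, or 8.52 CPM (6.53 to 10.9), and 44 at 0 hpa, or 2.21 CPM (1.605 to 2.96), a log2 ratio of 1.95 (1.37 to 2.54). Over the other processing choices the log2 ratio ran from 1.67 to 2.39. In thinned cells 0.721% at 6 hpa (0.452 to 1.09) and 0.213% at 0 hpa (0.106 to 0.381) held a UMI of it. In integrated cluster 4, where none of the fixed markers were raised, 0 of 138 cells at 6 hpa and 0 of 388 at 0 hpa did, with upper limits of 2.64% at 6 hpa and 0.946% at 0 hpa, too wide to serve as a background for these shares. Empty droplets held 2.62 CPM of *equinox* at 6 hpa and 1.599 at 0 hpa. These levels rest on very few UMIs, out of 763163 at 6 hpa and 1251015 at 0 hpa, and are not on a like scale. The part of free RNA in the cell levels of *equinox* was not tested. *bmp4* (dd_Smed_v6_17402_0), a signalling ligand that patterns the dorsal side, had 1 UMI at 6 hpa and 28 at 0 hpa, a log2 ratio of -3.35 with an interval of -8.71 to -0.76. The mean of *bmp4*, 0.771 CPM, was under the limit of 10 CPM as well. With no filter on low values, 5092 of 24753 contigs were called higher at 6 hpa and 5491 lower. Among the 8560 contigs that pass the limit the counts were 251 and 1986.

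A set of 5 contigs had been fixed as markers from recall of planarian cell atlases, which neither the files nor the paper annotate: dd_Smed_v6_332_0, dd_Smed_v6_61_0 and dd_Smed_v6_920_0 for epidermal progenitors, dd_Smed_v6_659_0 for neoblast-like cells and dd_Smed_v6_6573_0 for ciliated cells. dd_Smed_v6_659_0 had 763 CPM at 6 hpa and 222 at 0 hpa, a log2 ratio of 1.78 (1.73 to 1.84) that stayed at 1.62 in cells of 1000 to 3000 UMIs. It was found in 30.1% of thinned cells at 6 hpa and 11.6% at 0 hpa. Empty droplets held 203 CPM of it at 6 hpa and 201 at 0 hpa. There dd_Smed_v6_4_1 and dd_Smed_v6_7_0 took 78.4% of UMIs at 6 hpa and 36.1% at 0 hpa, so these levels are not on a like scale. The part of free RNA in its cell levels was not tested. dd_Smed_v6_332_0 had 795 CPM at 6 hpa and 2739 at 0 hpa, a log2 ratio of -1.79 that shrank to -0.41 in cells of 1000 to 3000 UMIs. It was found in 18.0% of thinned cells at 6 hpa and 35.4% at 0 hpa. dd_Smed_v6_61_0 had 4839 CPM at 6 hpa and 10678 at 0 hpa, with a log2 ratio of -1.14 that turned to 0.75 in cells of 1000 to 3000 UMIs. dd_Smed_v6_920_0 was nearly level, at 606 CPM in 6 hpa cells and 585.1 in 0 hpa cells, and stood at a log2 ratio of 1.43 in cells of 1000 to 3000 UMIs. dd_Smed_v6_6573_0 had 76.6 CPM at 6 hpa and 136 at 0 hpa, a log2 ratio of -0.82 that became 1.24 once clusters 11, 14 and 17 were left out and -1.97 once cluster 16 was left out. The limit of 3000 UMIs changes both the depth and the kinds of cells kept, and their parts in these values were not tested.

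**Figure D3:**
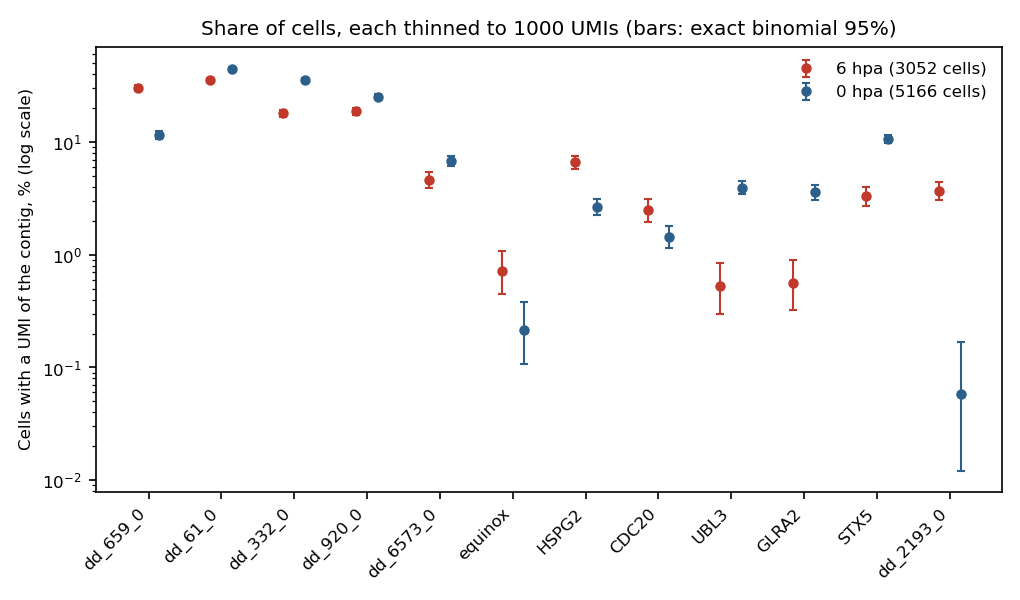
Percent of cells (log scale) with at least 1 UMI of each contig after every cell was thinned to 1000 UMIs, with 6 hpa left of 0 hpa and bars for exact binomial 95% intervals. dd_Smed_v6_659_0 was found in 30.1% of cells at 6 hpa and 11.6% at 0 hpa, while *STX5* was found in 3.31% at 6 hpa and 10.7% at 0 hpa.

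Human gene names came from a supplementary table of the study that pairs contigs with their best human protein match, of which 1200 rows could be read. It named 689 contigs of the files, and 350 of them passed the level of 10 CPM. The names carry a doubt: of 453 contigs named in both supplementary tables that could be read, 0 had the same human name in both. The tables were not read by the same rule. Names of the first were kept only where it listed a contig of the same number from an earlier assembly version, and the second was read without that check. Of 44 contigs fixed as cilium markers, nearly all by these names, 30 were raised in cluster 11, 27 in cluster 16 and 14 in cluster 18, and at most 4 in any other cluster. Of 16 neoblast-like markers at most 4 were raised in any cluster. The lists were chosen with earlier results of these data known, so these counts cannot settle the doubt. Of the 350 named contigs 4 (1.14%) were at least 2-fold higher at 6 hpa and 94 (26.9%) lower.

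The 4 higher were *SYNE1*, *HSPG2*, *INTS11* and *CDC20*. *SYNE1* (dd_Smed_v6_10214_0), a giant protein that ties the nucleus to the cytoskeleton, had 44.95 CPM at 6 hpa and 10.2 at 0 hpa, 4.41-fold higher, and 57.8% of its 6 hpa UMIs lay in cluster 16. *HSPG2* (dd_Smed_v6_1054_0), perlecan of the basement membrane, had 116 CPM at 6 hpa and 37.7 at 0 hpa, 3.08-fold higher, and 267, 152 and 133 in the anterior-facing, *unc-22* and posterior-facing 18 hpa libraries. It was found in 6.62% of thinned cells at 6 hpa and 2.67% at 0 hpa. *INTS11* (dd_Smed_v6_10577_0), the endonuclease of the Integrator complex that cuts small nuclear RNAs, had 22.1 CPM at 6 hpa and 9.99 at 0 hpa. *CDC20* (dd_Smed_v6_10335_0), which activates the anaphase-promoting complex in mitosis, had 25.4 CPM at 6 hpa and 12.4 at 0 hpa, a log2 ratio of 1.03 that dropped to 0.26 in cells of 1000 to 3000 UMIs.

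The named contig with the lowest ratio was *UBL3* (dd_Smed_v6_10574_0), a membrane-anchored ubiquitin-like protein, with 4.40 CPM at 6 hpa and 32.2 at 0 hpa, 7.31-fold lower. Its 18 hpa levels of 31.0, 27.1 and 30.4 were near that of 0 hpa. *GLRA2* (dd_Smed_v6_10794_0), a glycine receptor subunit, had 3.85 CPM at 6 hpa and 26.3 at 0 hpa, and *SLC17A6* (dd_Smed_v6_10192_0), which loads glutamate into synaptic vesicles, had 3.99 at 6 hpa and 19.5 at 0 hpa. Both receptor and transporter depended on cells of 3 clusters: without clusters 11, 14 and 17 the log2 ratio of *GLRA2* was -1.16 in place of -2.78 and that of *SLC17A6* -0.59 in place of -2.29, while *UBL3* stayed at -2.33. *STX5* (dd_Smed_v6_10081_0), a membrane fusion protein of the Golgi, had 34.0 CPM at 6 hpa and 121 at 0 hpa, against 97.8, 113 and 115 at 18 hpa. *ATP6AP2* (dd_Smed_v6_1067_0), a partner of the proton pump of lysosomes, had 13.3 CPM at 6 hpa and 50.3 at 0 hpa.

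By function, the list counts are to be read against the 26.9% of named contigs called lower and against the median over all contigs, -0.44. Centred on that median, 16 of the 350 named contigs were past 2-fold higher and 38 lower. Lists with more members higher than lower on that scale included muscle, with 2 higher and 1 lower of 4, and lysosome, with 2 and 1 of 3. Replication and mitosis had 2 and 0 of 8, and mitochondrial transcripts 6 and 0 of 8. The first scale gave 1 and 1, 0 and 1, 1 and 0, and 0 and 0 in the same order. Of 16 ribosome assembly genes 0 were past 2-fold higher and 2 lower, and their median log2 ratio was 0.13, with 13 above the median of all contigs. *TBL3*, a part of the machinery that processes ribosomal RNA, had 19.1 CPM at 6 hpa and 13.8 at 0 hpa, while *UTP23*, a factor of the small ribosomal subunit, had 6.19 at 6 hpa and 15.7 at 0 hpa. Among 6 genes of the ribosome and translation none passed 2-fold, with *RPL8* at 2000 CPM in 6 hpa cells and 1736 in 0 hpa cells. Of 8 replication and mitosis genes 1, *CDC20*, was higher and 0 lower, with a median of -0.48.

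Lists with medians further below that of all contigs included neurons, matrix, signalling, transcription factors and mitochondrial enzymes. Of 6 matrix genes 1 was higher, *HSPG2*, and 4 lower, with a median of -1.61. *COL2A1*, a fibrillar collagen, had 40.6 CPM at 6 hpa and 129 at 0 hpa. Some lists shared members and are not independent. *HSPG2* and *COL2A1* also stood in the muscle list, and *NOG* of the matrix list also stood in the signalling list. Of 17 neuronal contigs only 4 passed the mean of 10 CPM. *GLRA2*, *SLC17A6* and *GABRB2* passed only through 0 hpa, at 26.3, 19.5 and 14.9 CPM. At 6 hpa they had 3.85, 3.99 and 7.84. For these a lower value at 6 hpa was fixed by the filter, so their direction is not a result about neurons. All 4 neuronal genes lay below the median of all contigs, and 2 of them were past 2-fold lower. Of 8 nuclear genes for mitochondrial energy metabolism 4 were lower and 0 higher, and after centring 1 was lower. *NDUFB3*, a subunit of complex I, had 150 CPM at 6 hpa and 356 at 0 hpa. Of 7 genes for receptors, ligands and kinases of signalling pathways 3 were lower, among them *NOG*, which binds and blocks BMP ligands, at 4.67 CPM in 6 hpa cells and 17.01 in 0 hpa cells. Of 7 transcription factors 3 were lower, and after centring 1 was lower in each of these 2 lists. In the signalling list 1 was higher after centring, *ERBB4*, at a centred log2 ratio of 1.14. Among the transcription factors *PAX5* had 9.62 CPM at 6 hpa and 32.0 at 0 hpa.

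The chaperone list split. *TCP1*, a subunit of the chaperonin that folds actin and tubulin, had 583 CPM at 6 hpa and 398 at 0 hpa. *HSPB1*, a small heat shock protein, had 291 at 6 hpa and 672 at 0 hpa, and *PPID*, a co-chaperone, had 35.9 at 6 hpa and 85.6 at 0 hpa. Of 14 cell death and TRAF contigs 2 were lower, and 0 after centring. They were 1 of 2 *TRAF4* contigs and 1 of 2 *TRAF6* contigs, named for adaptors of immune and death receptors, and the other contigs stood at log2 ratios of -0.60 and -0.51. *CASP8*, an initiator caspase, was level at 25.2 CPM in 6 hpa cells and 23.4 in 0 hpa cells. Of 11 cilium genes 3 were lower and 0 higher, with a median of -0.60, and after centring 2 were higher and 2 lower. *DNAH10*, a dynein heavy chain of the axoneme, had 17.9 CPM at 6 hpa and 9.69 at 0 hpa with 73.8% of its 6 hpa UMIs in cluster 16.

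**Figure D4:**
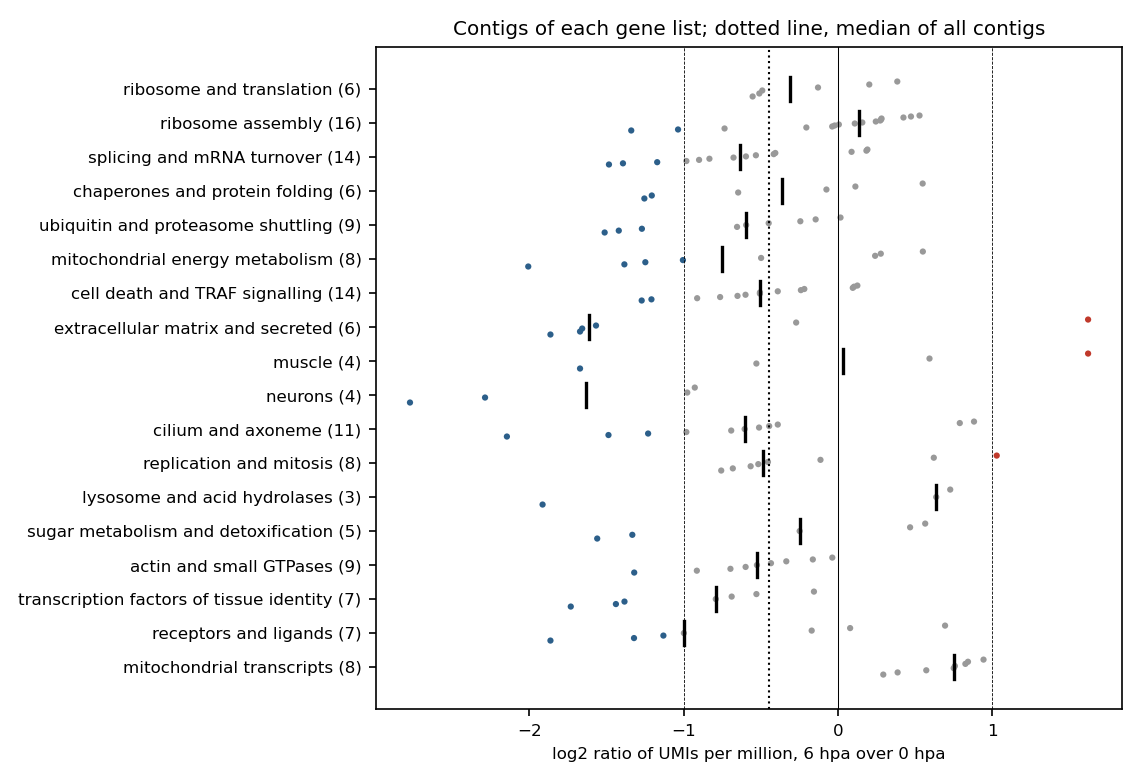
Log2 ratio of 6 hpa over 0 hpa for each contig (dots) of each list, with a black bar at the list median, a dotted line at -0.44, the median of all contigs, and dashed lines at 2-fold. The medians of the matrix and neuron lists lie farthest to the lower side, and all 8 mitochondrial transcripts lie above 0.

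To compare like cells with like, the libraries were also integrated before clustering, a step added after the data were seen, since only 1 of the 26 first clusters had at least 100 cells of each library. This gave 25 integrated clusters, 17 of them with at least 50 cells of each time, and a contig counted as measured in one when it had at least 20 UMIs there. Integrated clusters 9 and 17, with 29 and 24 of 44 cilium contigs raised, were not among those compared. They held 44 and 160 cells at 6 hpa, and 290 and 13 at 0 hpa. Integration may pair unlike cells. In integrated clusters 5, 7 and 12 dd_Smed_v6_659_0 was found in 81.1%, 43.4% and 31.8% of thinned cells at 6 hpa, against 29.9%, 2.00% and 1.27% at 0 hpa.

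Within integrated clusters dd_Smed_v6_659_0 had an interval wholly above 0 in 15 of 17. It was level in integrated cluster 3, in which 3 of 16 neoblast-like markers were raised, with 2513 CPM at 6 hpa and 2394 at 0 hpa, a log2 ratio of 0.07 (-0.02 to 0.16). There 60.8% of thinned cells at 6 hpa and 74.8% at 0 hpa held a UMI of it. In integrated cluster 14, with 4 of 16 raised, it had 2821 CPM at 6 hpa and 1868 at 0 hpa and was found in 86.9% of thinned cells at 6 hpa and 86.0% at 0 hpa. In integrated cluster 7 it had 984 CPM at 6 hpa and 43.3 at 0 hpa.

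In integrated clusters 0, 1, 2 and 6, where all 3 epidermal contigs were raised, dd_Smed_v6_332_0 was lower at 6 hpa in each. Cluster 0 had 2368 CPM at 6 hpa and 5455 at 0 hpa, cluster 1 had 4159 at 6 hpa and 6526 at 0 hpa, cluster 2 had 1446 at 6 hpa and 4233 at 0 hpa, and cluster 6 had 469 at 6 hpa and 1022 at 0 hpa. dd_Smed_v6_920_0 went the other way in clusters 0, 1 and 2, with 1571 CPM at 6 hpa and 1045 at 0 hpa in cluster 0, and 2490 at 6 hpa and 1306 at 0 hpa in cluster 1, while in cluster 6 its interval spanned 0. It was not higher everywhere. In integrated cluster 22, left out with 42 cells at 0 hpa, it was found in 61.9% of thinned cells at 6 hpa and 88.1% at 0 hpa. In cluster 22 of the first clustering the shares were 68.3% at 6 hpa and 60.6% at 0 hpa. The lower level of dd_Smed_v6_61_0 was small in the 4 epidermal clusters, with log2 ratios of -0.32, -0.19, -0.74 and -0.27 in clusters 0, 1, 2 and 6. Outside these clusters its level was lower and mostly higher at 6 hpa, as in cluster 3, with 154 CPM at 6 hpa and 64.5 at 0 hpa. *equinox* (dd_Smed_v6_20318_0) had under 20 UMIs in each of these clusters and was not counted as measured in any.

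Some contigs differed in the same direction in all 17 integrated clusters. dd_Smed_v6_7_0 was higher in every one, with log2 ratios of 0.65 to 2.38. dd_Smed_v6_4392_0 was lower in every one, with 1478 CPM at 6 hpa and 6418 at 0 hpa in cluster 1 and 272 at 6 hpa and 3293 at 0 hpa in cluster 8. *HSPB1* (dd_Smed_v6_1039_0) was lower in every one, from 134 CPM at 6 hpa and 660 at 0 hpa in cluster 16 to 355 at 6 hpa and 446 at 0 hpa in cluster 8. *TCP1* (dd_Smed_v6_1025_0) was higher in 12 and lower in 1, cluster 4, with 462 CPM at 6 hpa and 612 at 0 hpa. *STX5* was lower in 12 of 17, *ATP6AP2* in 9 of 10 and *UBL3* in 6 of 6.

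**Figure D5:**
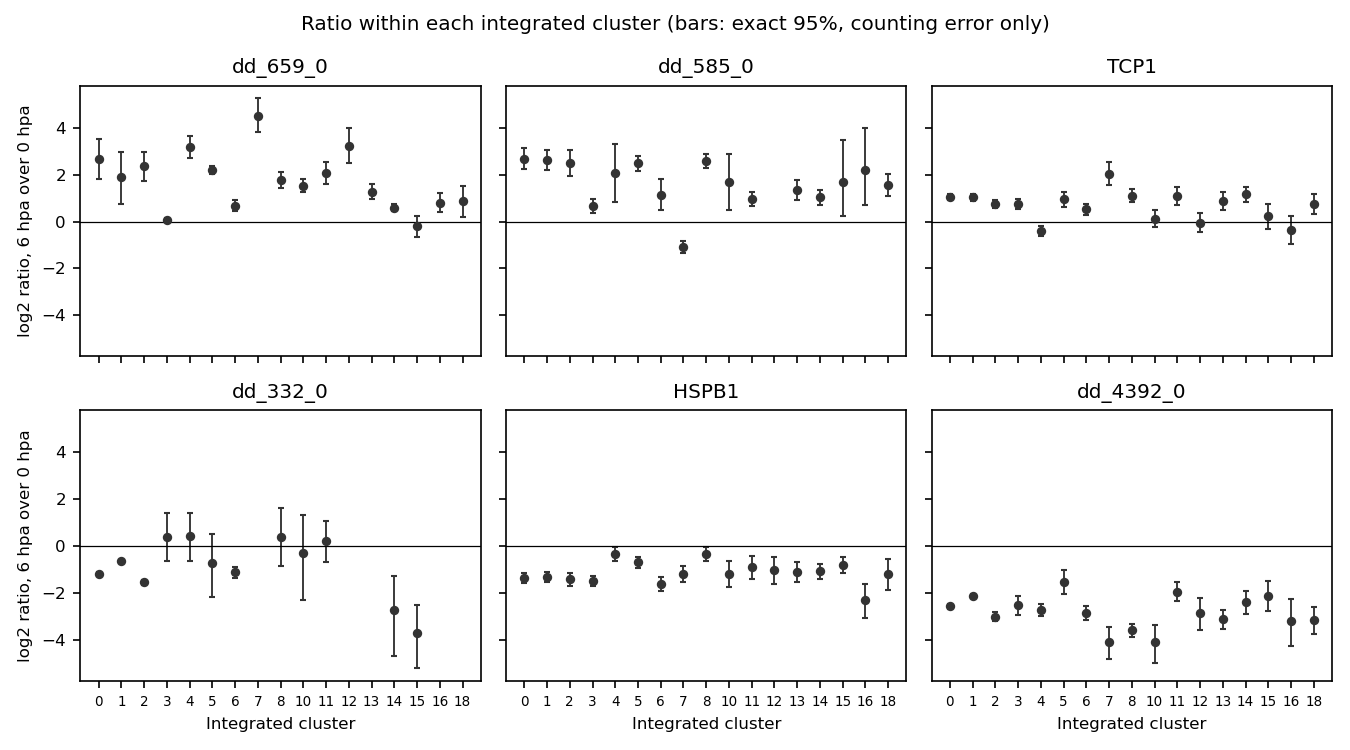
Log2 ratio of 6 hpa over 0 hpa of 6 contigs within each of 17 integrated clusters, with exact 95% intervals. dd_Smed_v6_4392_0 and *HSPB1* lie below 0 in all 17, *TCP1* lies wholly above 0 in 12, and dd_Smed_v6_332_0 lies wholly below 0 in clusters 0, 1, 2, 6, 14 and 15.

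*HSPG2* (dd_Smed_v6_1054_0) was measured in 3 of the 17 integrated clusters and higher in each. It had 1261 CPM at 6 hpa and 602 at 0 hpa in cluster 8, 509 at 6 hpa and 229 at 0 hpa in cluster 13, and 247 at 6 hpa and 16.3 at 0 hpa in cluster 18. In cluster 8 a UMI of it was found in 62.5% of thinned cells at 6 hpa and 43.7% at 0 hpa. It was not higher everywhere: in integrated cluster 23, which had under 50 cells at 6 hpa, the share was 51.5% at 6 hpa and 61.4% at 0 hpa, and in cluster 23 of the first clustering, which held 58.6% of its 0 hpa UMIs, 61.5% at 6 hpa and 61.7% at 0 hpa. *SYNE1* was measured in 1 integrated cluster, with an interval that spanned 0. Most of its 6 hpa UMIs lay in cluster 16 of the first clustering. Integrated clusters 9 and 17, with the most cilium contigs raised, were not compared, so whether it was higher within such cells was not tested.

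Within the 17 integrated clusters the median contig had a log2 ratio of -1.004 to -0.08, so that counts of lower contigs per cluster start from a level below 0. Of the 1986 lower contigs 1490 were measured in at least 5 integrated clusters, and 1180 of these were lower, by the whole interval, in 50% or more of them. Of the 251 higher contigs 76 were measured in at least 5, and 41 of these were higher in 50% or more, while 52 were measured in none. These counts describe the contigs already called from the same cells.

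Several contigs of that kind were picked out after their values were seen. dd_Smed_v6_3086_0 had 60.1 CPM at 6 hpa and 9.39 at 0 hpa. In integrated clusters 0, 1 and 2 it had 79.3, 164 and 75.9 CPM at 6 hpa, against 1.22, 2.18 and 0.980 at 0 hpa, while in cluster 8 it was lower, with 26.9 at 6 hpa and 93.7 at 0 hpa. At 18 hpa it stood at 77.4, 116 and 38.2 in the anterior-facing, *unc-22* and posterior-facing libraries. dd_Smed_v6_585_0 had 318 CPM at 6 hpa and 109 at 0 hpa, was higher in 15 of 16 integrated clusters and lower in cluster 7, and stood at 798, 555 and 484 at 18 hpa. dd_Smed_v6_1921_0 had 459 at 6 hpa and 168 at 0 hpa and was higher in 16 of 17. dd_Smed_v6_921_0 had 424 at 6 hpa and 187 at 0 hpa and was higher in 11 of 17 and lower in 2. These 4 stood above their 0 hpa level in each 18 hpa library, as did 3 of the 12 contigs of the highest ratios, dd_Smed_v6_3993_0, dd_Smed_v6_2116_0 and dd_Smed_v6_1988_0, at far lower levels.

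On the lower side, dd_Smed_v6_7731_0 had 97.7 CPM at 6 hpa and 1140 at 0 hpa, was lower in 17 of 17 integrated clusters, and was found in 6.55% of thinned cells at 6 hpa and 51.5% at 0 hpa. dd_Smed_v6_12410_0 had 45.1 at 6 hpa and 452 at 0 hpa and was lower in 16 of 16. dd_Smed_v6_3257_0 had 264 at 6 hpa and 1582 at 0 hpa and was lower in 17 of 17. The 18 hpa levels of these 3 lay between those of 6 and 0 hpa in every library, at 544, 433 and 742 CPM for dd_Smed_v6_7731_0.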

How the data were processed

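Single-cell RNA was measured with 10x Genomics version 3 chemistry. The authors deposited raw UMI counts per contig and barcode for each library, made with Cell Ranger against the Smed_v6 transcripts on the Smes_g4 assembly per the file headers and labels. The labels' 18 hpa is kept here, where the paper's text has 16.

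Cells were barcodes with 1000 or more UMIs and 200 to 2500 contigs. No doublet caller was run. UMIs were summed over cells, scaled to counts per 1000000 UMIs (CPM) and compared as ratios with exact conditional binomial 95% intervals, which cover counting error only. With 1 library a group no test of the difference was possible. A contig was called when 2-fold apart at a mean of 10 or more CPM, and a count of 0 was set to 3 counts per library. Shares were taken after thinning each cell to 1000 UMIs, with exact binomial 95% intervals. Cells were clustered with scanpy 1.11.5 (2000 variable contigs, 11 dimensions, 20 neighbours, Leiden resolution 1, leidenalg 0.10.2). Integration used Seurat 5.3.0 canonical correlation. The ratio script was tested on simulated data. Tables were handled with pandas 2.3.3, intervals computed with scipy 1.17.1 and numpy 2.4.6, and plots drawn with matplotlib 3.10.9 under Python 3.11.15.

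Contigs named were the 12 highest and lowest ratios, over all contigs and over human-named ones, the 6 largest differences in level each way, fixed markers, and list members with the 2 highest and 2 lowest ratios. The members and lists were chosen with earlier results of these data known. Alternatives were other limits on cells, depth and level, centring, thinning, equal weight per cell and another resolution. Integration, leaving out clusters and the scale without the most abundant contigs were added after the data were seen.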

Additional observations from a re-analysis of the deposited data

Results flagged for a closer look

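Barcodes with at least 1000 UMIs but under 200 contigs, which the rule for cells leaves out, numbered 874 in the 6 hpa library and 43 in the 0 hpa library. The 18 hpa libraries had 89, 32 and 59. In these barcodes dd_Smed_v6_4_1 and dd_Smed_v6_7_0 took 56.4% of UMIs at 6 hpa and 63.3% at 0 hpa, and mitochondrial contigs 35.6% at 6 hpa and 26.5% at 0 hpa. They stood out as signal in barcodes that no comparison used.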

How the results depend on the processing

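The counts of 251 higher and 1986 lower contigs moved with these choices. Lower contigs numbered 3228 in cells of 1000 to 3000 UMIs, and higher contigs 470 in cells under 10% mitochondrial UMIs. Centring gave 603 higher and 856 lower, a mean of at least 50 CPM 61 and 565, no filter 5092 and 5491, and the scale without mitochondrial contigs, dd_Smed_v6_4_1 and dd_Smed_v6_7_0 654 and 1188. Higher contigs made up 11.2% of calls, 41.3% after centring and 35.5% on that last scale. Lower contigs numbered 1235 when the whole interval had to pass 2-fold. Higher contigs numbered 142 without cluster 16, and also without clusters 11, 14, 16 and 17.

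Of the named contigs past 2-fold, 4 turned direction under 1 alternative each: dd_Smed_v6_61_0 to 0.75, dd_Smed_v6_69_0 to 0.16 and *CYP2S1* to 0.43 in cells of 1000 to 3000 UMIs, and *WDR60* to 0.48 without clusters 11, 14 and 17. The cause was not tested beyond the cells left out. Contigs within 2-fold turned as well, dd_Smed_v6_6573_0 to 1.24 without clusters 11, 14 and 17, and on centred ratios *ARHGAP44* to 0.41 and *GSC* to 0.29. The share of cells with *equinox* was 0.426% at 6 hpa when thinned to 500 UMIs, and unthinned 1.74% at 6 hpa and 0.774% at 0 hpa. That of dd_Smed_v6_659_0 was 21.0% and unthinned 37.7% at 6 hpa, and 7.92% and unthinned 20.5% at 0 hpa. That of dd_Smed_v6_332_0 was 13.5% and unthinned 23.0% at 6 hpa, and 30.4% and unthinned 41.1% at 0 hpa. Clusters with at least 100 cells of both libraries numbered 1, against 3 at resolution 0.5 and 10 after integration. No paired analysis was possible because each group had 1 library, and no replicate could be left out for the same reason. A count of 0 thinned cells allows a share of cells with a UMI of up to 0.0983% at 6 hpa and 0.0581% at 0 hpa, and says nothing of cells that express a contig without a UMI.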
